A study of Rattus norvegicus with 70 samples.

Results

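Adipokines are proteins that fat tissue secretes to signal to itself and to other organs. The 8 adipokine genes described here are Lep, Adipoq, Retn, Cfd, Nampt, Apln, Nrg4 and Rarres2, 8 of 15319 genes counted. They were taken as a named list and matched by their NCBI gene numbers to rat symbols, and all 8 were found in each of the 6 count tables and passed the filter on low counts in all comparisons. RNA-seq libraries were made from adolescent Sprague-Dawley rats, an outbred stock, and covered 3 fat depots: brown fat (BAT), fat under the skin (SAT) and fat of the viscera (VAT). PCB 52, a chlorinated biphenyl, was inhaled nose-only for 4 h a day over 28 days, and sham rats were the controls. No group carried a transgene or other agent. Males were 39 and females 42 days old when exposure started, and sex therefore cannot be told apart from age at the start. The 70 libraries made 12 groups of depot, sex and treatment, with 6 libraries each except 5 in female SAT sham and 5 in male VAT PCB 52, and libraries with 1 title number were read as 1 rat.

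Leptin (Lep) is released in proportion to fat stores and acts on the brain to restrain feeding. Adiponectin (Adipoq) sensitizes tissues to insulin, resistin (Retn) is an adipocyte hormone of rodents, and adipsin (Cfd) is the protease that starts the alternative complement pathway. Nampt makes NAD inside cells and is also secreted, apelin (Apln) acts on vessels and heart, neuregulin 4 (Nrg4) is a factor of brown fat that signals through ERBB receptors, and chemerin (Rarres2) attracts immune cells and acts on adipocytes.

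Total counts per library ran from 4604116 to 9707132, with a median of 7113976. Levels below are CPM, counts scaled to equal TMM-adjusted library sizes, and they are compared only within a gene because no gene lengths were used. The labelled tissues were checked by markers. The summed level of 7 brown adipocyte markers was 4186 to 16130 CPM in all but 1 BAT library, and had medians of 25.3 to 68.9 CPM in the SAT and VAT groups. The exception was female BAT PCB 52 animal 24, at 276.1 CPM. Adipocyte markers (13 genes) had medians of 45210 to 56000 CPM in the BAT and VAT groups, but of 6691 to 27540 CPM in the SAT groups. Mammary epithelium markers (10 genes, milk caseins among them) ran from 10.7 to 304700 CPM in male SAT and from 3411 to 32100 CPM in female SAT. In bulk tissue, fewer cells of a type and less RNA per cell cannot be told apart. Of the libraries that stood apart, female SAT sham animal 8 had 4211 genes at 0, and male VAT PCB 52 animal 13 had no counts on 316 of 323 expressed X-linked genes, Apln among those listed at 0, and none on 273 of 419 expressed genes of chromosome 9. Together with female BAT animal 24, male SAT animal 19, female VAT animals 4 and 8 and male VAT animal 11, these are the 7 libraries that stood apart, and values without them are given beside the results that they moved most.

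Among libraries of 1 group with any counts, Lep and Cfd had the widest ranges of the members (up to 57.5-fold for Lep and 45.8-fold for Cfd). Promoter letters are shown for Lep and Cfd for another reason. Of 7 members with a promoter, only theirs kept a long enough stretch outside the RefSeq models of the gene. They come from RefSeq on build GRCr8, which is not the build the reads were mapped to. Capitals mark motifs that a script found on either strand: GGGCGG (a GC box), CCAAT (read as ATTGG on the other strand) and TTGCGCAA (a C/EBP motif). The TATA box letters, TATAAA, and the E-box letters, CACGTG, were searched too and were found in neither.
Lep, chr4:58626418-58626528, plus strand: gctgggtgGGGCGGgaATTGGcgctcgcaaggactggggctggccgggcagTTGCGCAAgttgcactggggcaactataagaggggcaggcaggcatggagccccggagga
Cfd, chr7:10465497-10465616, minus strand: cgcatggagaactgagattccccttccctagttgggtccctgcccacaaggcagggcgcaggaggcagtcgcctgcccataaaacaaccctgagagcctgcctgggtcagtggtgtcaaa
The Lep stretch held all 3 of these motifs. In the 250 bases before the start, TTGCGCAA was found in 47 of 33469 rat promoters (0.14%), CCAAT in 34.02%, the GC box in 30.47%, the TATA box in 12.93% and the E-box in 5.59%. The Cfd stretch held none of the 3, and its 1 match, a GC box, lay 162 to 157 bases before the start. A match describes letters only.

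**Figure D1:**
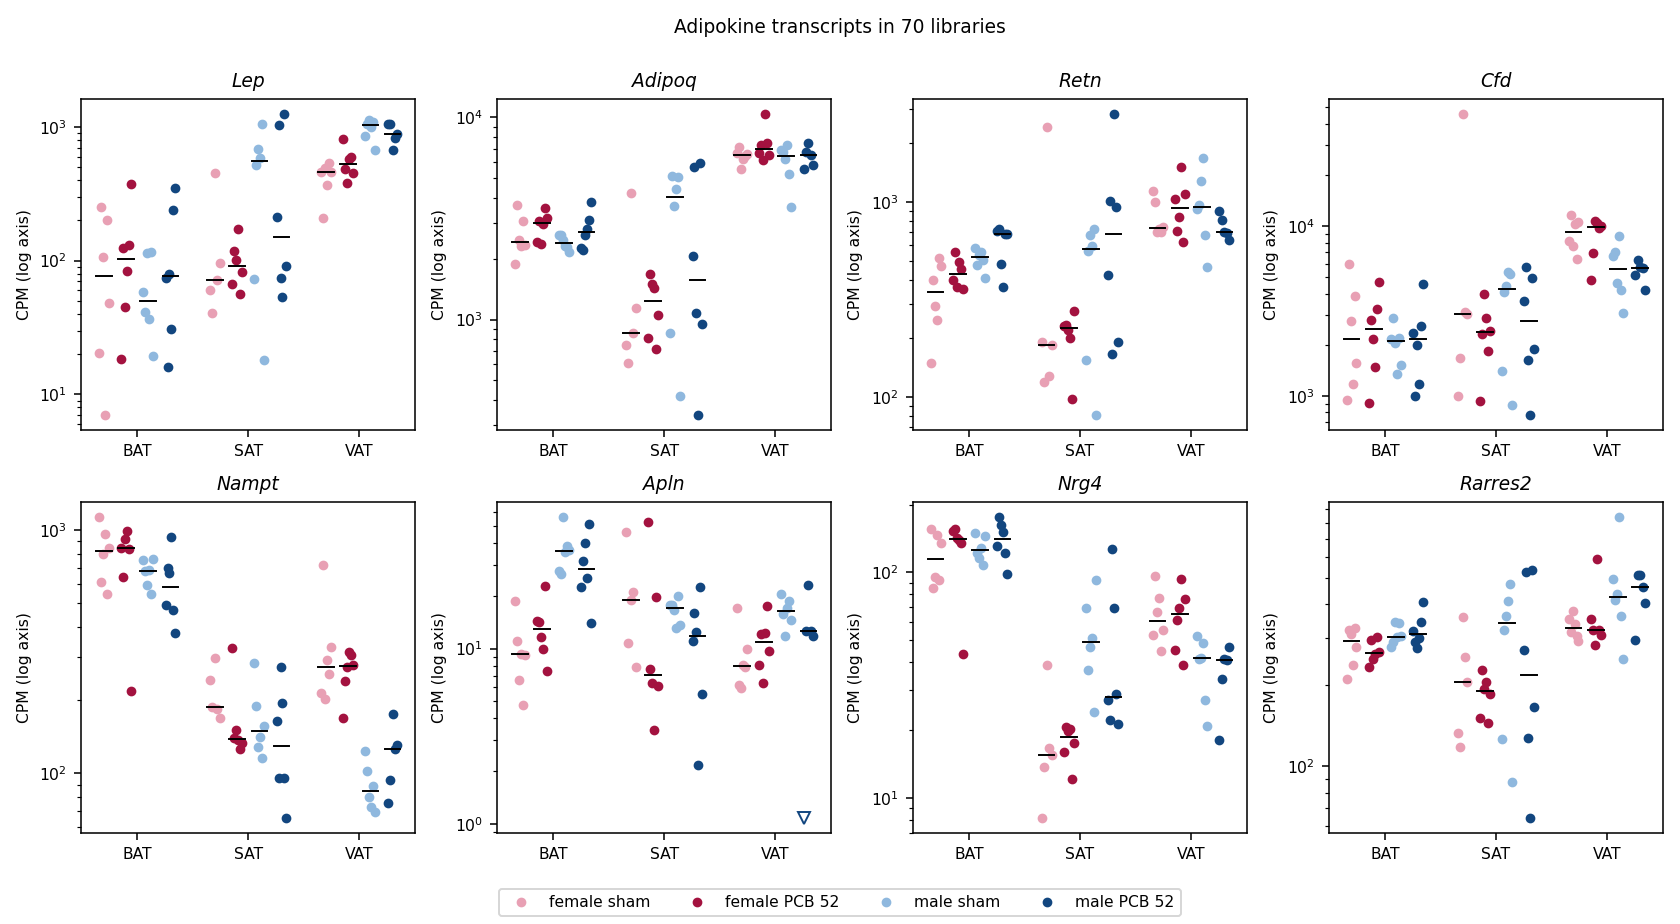
Each point is 1 of 70 libraries, with CPM on a log axis and depots on the horizontal axis; colours give sex and treatment, black lines are group medians, and the open triangle at the foot of the Apln panel is a library with 0 counts. Nampt and Nrg4 are highest in BAT, and Adipoq and Cfd medians are highest in VAT.

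Among the depots, Nampt and Nrg4 were highest in BAT in both sexes. In female sham rats Nampt was at 1133, 612.8, 796.6, 963, 548.3 and 843.3 CPM in BAT (animals 2 to 12), at 241.2, 186.7, 298.6, 183.5 and 168.4 CPM in SAT, and at 214.3, 717.7, 202.5, 291.4, 256.6 and 329.8 CPM in VAT. All BAT libraries lay above all SAT libraries, and only VAT animal 4 reached into the BAT range. That VAT library had 7 brown adipocyte markers summing to 672.1 CPM, the highest in its group; the part of this in its Nampt level was not tested. The log2 difference was 1.92 (SE 0.321, edgeR adjusted p = 0.000118) for BAT over SAT and 1.29 (SE 0.295, edgeR adjusted p = 0.0041) for BAT over VAT. Without the 7 libraries that stood apart the second was 1.72, also called. In male sham rats Nampt ran from 547.5 to 759.8 CPM in BAT (median 681.0), from 115.8 to 284.4 in SAT (149.0) and from 69.4 to 123.6 in VAT (84.4). BAT did not overlap with either depot there. BAT exceeded SAT by 2.00 (SE 0.209, edgeR adjusted p = 3.83e-07) and VAT by 2.93 (SE 0.217, edgeR adjusted p = 6.87e-09) on the log2 scale, and VAT was below SAT by -0.93 (SE 0.204, edgeR adjusted p = 0.0048). In the PCB 52 rats the BAT differences were called again, at 2.19 and 1.55 in females and 2.09 and 2.38 in males, while the male VAT against SAT difference was -0.29 (edgeR adjusted p = 0.591).

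Nrg4 followed the same order in female sham rats, with 118.2 ± 30.7 CPM in BAT (SD, n = 6), 65.5 ± 18.7 in VAT (n = 6) and 18.6 ± 11.9 in SAT (n = 5). SAT ran from 8.11 to 39.0 CPM and lay below all BAT and VAT libraries. The log2 difference of BAT over SAT was 2.68 (SE 0.344, edgeR adjusted p = 8.25e-06) and that of VAT over SAT 1.82 (SE 0.332, edgeR adjusted p = 0.0004). BAT and VAT overlapped, and their difference of 0.85 (SE 0.301, edgeR adjusted p = 0.046) lost its call in 9 of 12 fits that left out 1 library (BAT animals 2, 6, 8 and 12, VAT animals 2, 6, 8, 10 and 12), at 0.76 to 0.99. In PCB 52 females it was called at 1.05 (edgeR adjusted p = 0.00272). The sham difference stayed called without the 7 libraries that stood apart (1.13, edgeR adjusted p = 0.00117). Its call held with only the 2 depots fitted (edgeR adjusted p = 0.00392). The call also held on plain totals (edgeR adjusted p = 0.0287), with DESeq2 (adjusted p = 0.0233) and with limma voom (adjusted p = 0.0209). In male sham rats Nrg4 was at 149, 121.9, 116.1, 128.6, 107.8 and 144.6 CPM in BAT, above all SAT (24.1 to 92.7) and VAT (20.9 to 52.0) libraries. BAT exceeded SAT by 1.27 (SE 0.266, edgeR adjusted p = 0.000649) and VAT by 1.75 (SE 0.27, edgeR adjusted p = 3.73e-05), while male SAT and VAT did not pass the test (-0.48, edgeR adjusted p = 0.189). Female BAT PCB 52 animal 24, the library with low brown markers, held Nrg4 at 43.3 CPM and Nampt at 218.9 CPM, where the other 5 libraries held 135.1 to 155.3 and 640.6 to 992.4 CPM. The part of the brown markers in these levels was not tested. Nrg4 overlaps Fbxo22 in the RefSeq table, and whether strand was used in counting is not given in the sources used here. The ratio of Fbxo22 to Nrg4 counts ran from 0.396 to 6.72 over the 70 libraries, so the pair kept no fixed ratio. Whether some reads of the pair were shared was not tested.

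**Figure D2:**
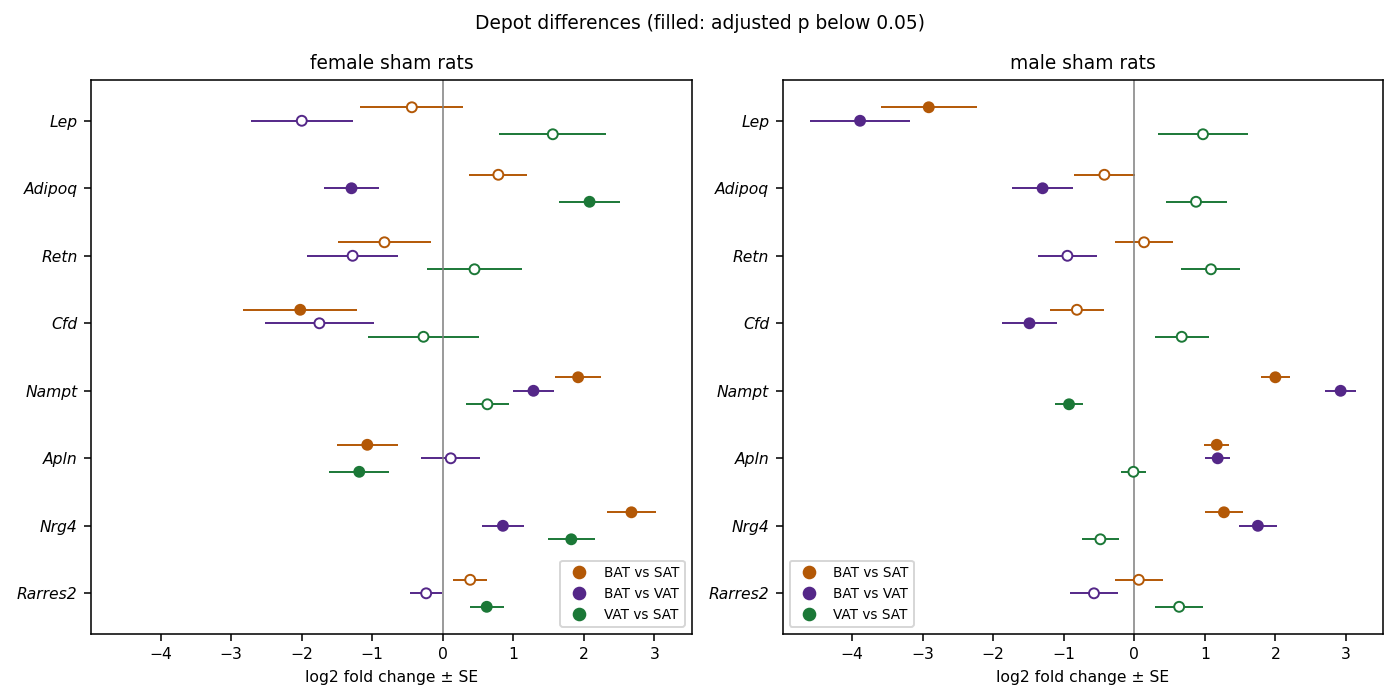
Points are log2 fold changes between depots in sham rats, bars are SEs, and filled points had an edgeR adjusted p under 0.05. Nampt and Nrg4 lie to the right of 0 for both BAT contrasts in each sex, and male Lep lies furthest to the left, at -3.89 for BAT against VAT.

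Lep, Adipoq and Cfd had their highest group medians in VAT. In male sham rats Lep was at 58.2, 41.4, 114.4, 36.6, 116 and 19.5 CPM in BAT and at 858.1, 1050, 1118, 1000, 1083 and 673.9 in VAT, with no overlap. The log2 difference of BAT from VAT was -3.89 (SE 0.707, edgeR adjusted p = 0.000209) and that from SAT -2.91 (SE 0.678, edgeR adjusted p = 0.0016). In PCB 52 males the first was called again (-2.77, edgeR adjusted p = 0.0228) and the second was not (-1.78, edgeR adjusted p = 0.095). The contrast of VAT with SAT in male sham rats did not pass the test (0.97, SE 0.634, edgeR adjusted p = 0.27). In females Lep in BAT was -2.00 (SE 0.725, edgeR adjusted p = 0.0519) relative to VAT, short of the threshold, and the same contrast in PCB 52 females was called at -2.02 (edgeR adjusted p = 0.00294).

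Adipoq in BAT was below VAT in both sexes, by -1.29 in females (SE 0.394, edgeR adjusted p = 0.0225) and -1.30 in males (SE 0.436, edgeR adjusted p = 0.0192), without overlap. Female sham VAT libraries held 5560 to 7129 CPM and BAT libraries 1892 to 3702. The female call ended in 3 of 12 fits without 1 library, namely BAT animals 2, 8 or 12, with adjusted p up to 0.0551 and differences of -1.41 to -1.21 over the 12 fits. The male call ended with limma voom (adjusted p = 0.0562). Fitting only the 2 depots compared, the edgeR adjusted p was 4.93e-05 in females and 2.44e-05 in males. Without the 7 libraries that stood apart the differences were -1.25 (edgeR adjusted p = 0.000232) in females and -1.41 (edgeR adjusted p = 0.0161) in males. Female VAT was above SAT by 2.08 (SE 0.431, edgeR adjusted p = 0.00113), and SAT ran from 606 to 1142 CPM apart from animal 8 at 4236. Without animal 8 the difference was 2.95, and without the 7 libraries that stood apart 2.94 (edgeR adjusted p = 4.98e-07). In PCB 52 males BAT against VAT was -1.16 (edgeR adjusted p = 0.104), and in PCB 52 females all 3 Adipoq contrasts were called, at 1.34 for BAT over SAT, -1.28 for BAT against VAT and 2.62 for VAT over SAT.

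Cfd in male sham rats was at 2022 ± 554 CPM in BAT and 5735 ± 2121 in VAT (SD, n = 6 each), without overlap, a log2 difference of -1.49 (SE 0.39, edgeR adjusted p = 0.00409). Female sham BAT (947.7 to 5943 CPM) also lay below VAT (6387 to 11620 CPM) without overlap. That difference was -1.75 (SE 0.778, edgeR adjusted p = 0.112), not called, and in PCB 52 females it was called at -1.73 (edgeR adjusted p = 0.000998). In females the SAT library of animal 8 held 45880 CPM against 1001 to 3132 in the 4 others, and BAT against SAT turned from -2.02 (SE 0.807, edgeR adjusted p = 0.0483) to 0.33 without it (edgeR adjusted p = 0.544). The call also ended without BAT animal 2, 6, 8, 10 or 12, and with limma voom (adjusted p = 0.352). With the replicate block, which groups libraries by animal, that contrast was -0.89 (edgeR adjusted p = 0.427). Retn passed in none of the 6 depot contrasts of sham rats. Its female BAT (148.8 to 517.4 CPM) and VAT (698.9 to 1133) libraries did not overlap, and the difference was -1.28 (SE 0.643, edgeR adjusted p = 0.163). In PCB 52 females it was called, at -1.09 (edgeR adjusted p = 0.00103). The male VAT against SAT difference of Retn, 1.09 (edgeR adjusted p = 0.0664), passed with the replicate block at 1.22 (edgeR adjusted p = 0.0316).

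Apln was highest in BAT in males. Male sham BAT held 27.8, 26.4, 56.2, 35.3, 38.2 and 36.3 CPM, above all SAT (13.1 to 19.8) and VAT (11.8 to 20.5) libraries. The differences were 1.17 (SE 0.179, edgeR adjusted p = 3.35e-05) and 1.18 (SE 0.178, edgeR adjusted p = 3e-05), and SAT and VAT differed by -0.013 (SE 0.178). In females the order was another, with SAT above BAT (-1.07, SE 0.43, edgeR adjusted p = 0.0498) and above VAT (VAT against SAT -1.18, SE 0.428, edgeR adjusted p = 0.0364). SAT animal 2 held 45.9 CPM, the highest of its group, and without it they were -0.50 (edgeR adjusted p = 0.321) and -0.64 (edgeR adjusted p = 0.208). Leaving out 1 library ended the calls in 8 and 7 of 11 fits: BAT animals 4, 6, 8, 10 and 12 and SAT animals 2, 8 and 10 for the first, VAT animals 4, 6, 8, 10 and 12 and SAT animals 2 and 10 for the second. Both also ended with limma voom (adjusted p = 0.109 and 0.0789). In PCB 52 rats no Apln contrast between depots was called, with 1.44 (edgeR adjusted p = 0.107) and 1.39 (edgeR adjusted p = 0.16) for the male BAT contrasts. The SEs of these 2 contrasts were 0.691 and 0.732. That male fit held VAT animal 13, listed at 0 for Apln, and the part of this library in the SEs was not tested.

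Rarres2 passed in 1 of the 6 depot contrasts of sham rats, female VAT over SAT, at 0.62 (SE 0.242, edgeR adjusted p = 0.0492), and the call was lost in 9 of 11 fits without 1 library (SAT animals 2, 6 and 12 and all 6 VAT animals), at 0.50 to 0.91, and with the replicate block (0.69, edgeR adjusted p = 0.0676). In PCB 52 females it was called at 0.96 (edgeR adjusted p = 0.000116). Female sham Rarres2 was at 329.7 ± 32.1 CPM in VAT (n = 6), 280.5 ± 47.5 in BAT (n = 6) and 214.0 ± 98.3 in SAT (n = 5). Rarres2 overlaps Lrrc61 in the RefSeq table, and the ratio of Lrrc61 to Rarres2 counts stayed between 0.636 and 0.802 in all 70 libraries, so reads of the pair may be shared and the Rarres2 values are uncertain.

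In numbers, 2 members were called higher and 2 lower in BAT than SAT of female sham rats, where 47.6% of tested genes were called. The counts were 2 and 1 for female BAT against VAT (25.5% of genes), 3 and 1 for female VAT against SAT (39.7%), 3 and 1 for male BAT against SAT (56.6%), 3 and 3 for male BAT against VAT (50.4%) and 0 and 1 for male VAT against SAT (23.1%). The median log2 difference over the members was -0.024, -0.76, 0.63, 0.10, -0.76 and 0.65 in that order, beside -0.14, -0.072, -0.098, -0.11, -0.09 and -0.001 over all genes tested. On plain library totals the median of all genes shifted by up to -0.33, in male BAT against VAT, and the share of calls that were higher there moved from 48.1% to 25.4%. It moved from 42.6% to 30.2% in female BAT against SAT, from 56% to 44.1% in female BAT against VAT and from 44.2% to 73.4% in male VAT against SAT.

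Sexes of sham rats differed in Apln in BAT and in Lep and Nampt in VAT without overlap. Apln in male BAT, with the values above, lay over the female libraries at 18.7, 11.1, 6.63, 9.31, 4.77 and 9.23 CPM, a log2 difference of 1.89 (SE 0.321, edgeR adjusted p = 0.00964). It was 1 of 8 genes called in BAT (0.0725% of those tested). In the PCB 52 rats the groups overlapped, at 14.04 to 51.06 CPM in males and 7.398 to 22.71 in females, and the difference of 1.20 (SE 0.314) had an edgeR adjusted p of 0.315. Skeletal muscle markers in BAT of sham rats had 12 of 12 differences above 0, none called, and summed levels of 830.1 to 55920 CPM in males and 344.4 to 30480 in females; their part in the Apln level was not tested.

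Lep in VAT ran from 207.8 to 541.2 CPM in female sham rats, with a median of 460.1, all below the 6 male libraries given above. The log2 difference was 1.19 (SE 0.21, edgeR adjusted p = 0.000509), and in PCB 52 rats it was 0.72 (SE 0.216, edgeR adjusted p = 0.0463). Nampt in VAT went the other way, at 123.6, 102.1, 80.2, 72.8, 88.7 and 69.4 CPM in males, all below the female libraries. The difference was -1.89 (SE 0.268, edgeR adjusted p = 7.93e-05) and in PCB 52 rats -1.11 (SE 0.279, edgeR adjusted p = 0.0187). Without the 7 libraries that stood apart, the sham differences were 1.05 for Lep and -1.44 for Nampt, both called. In the same comparison 17.9% of all tested genes were called. Beside that share, 2 of 13 adipocyte markers and 1 of 10 macrophage markers were called lower in males. So were 2 of 3 tested brown adipocyte markers (median log2 difference -1.02), 3 of 4 tested skeletal muscle markers and 1 of 4 tested lymphocyte markers. Of the endothelium markers, 3 of 6 were called higher. The brown marker sum ran from 53.4 to 672.1 CPM in female and from 47.9 to 111.4 CPM in male sham VAT. The part of these markers in the Lep and Nampt differences was not tested.

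Cfd (-0.66, SE 0.224, edgeR adjusted p = 0.044) and Nrg4 (-0.75, SE 0.249, edgeR adjusted p = 0.039) were lower in male VAT with overlapping groups. Each call ended in 7 of 12 fits without 1 library. For Cfd these were female animals 2, 4, 8 and 12 and male animals 5, 9 and 11, with -0.80 to -0.54 over all 12. For Nrg4 they were female animals 4, 6 and 8 and male animals 3, 5, 9 and 11, with -0.85 to -0.62. Without the libraries that stood apart they were -0.40 (edgeR adjusted p = 0.297) and -0.40 (edgeR adjusted p = 0.234). Nrg4 was higher in male SAT, at 53.5 ± 24.4 CPM (SD, n = 6) against 18.6 ± 11.9 (n = 5), by 1.60 (SE 0.463, edgeR adjusted p = 0.0381), and that call ended in 9 of 11 such fits (female animals 2, 6, 10 and 12, male animals 1, 3, 5, 7 and 11), at 1.34 to 2.01. In PCB 52 rats these 3 contrasts were of about the same size but not called, at -0.67, -0.81 and 1.47 with edgeR adjusted p of 0.0878, 0.0686 and 0.0744. So 1 member was called in SAT, where 7.89% of genes were, and 4 in VAT, 1 higher and 3 lower in males, where 17.9% were. On plain totals the share of higher calls moved from 32.8% to 10.2% in SAT and from 52.8% to 69.8% in VAT. The other members did not pass, with adjusted p from 0.113 to 0.716 in VAT.

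**Figure D3:**
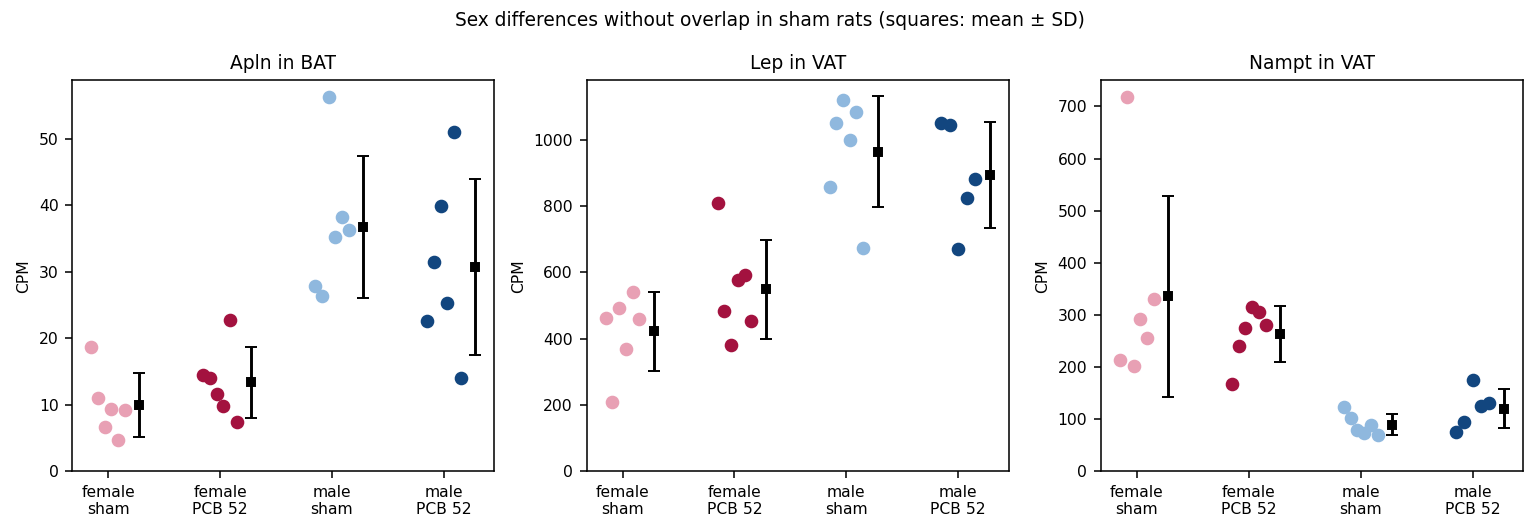
Points are libraries, squares are means and bars SDs, in CPM from 0. In sham rats male Apln in BAT (26.4 to 56.2) and male Lep in VAT (673.9 to 1118) lie above all female libraries, and male Nampt in VAT (69.4 to 123.6) lies below them.

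PCB 52 was then compared with sham, the question of the series. No adipokine was called in any sex or depot, and edgeR called 0% of tested genes in each of the 6 sets of a sex and a depot, over both sexes in each depot, and for the sex-by-treatment interaction in each depot. At an unadjusted p under 0.05 it had 388 genes for BAT of females and 1053 for BAT of males. For SAT it had 605 in females and 178 in males, and for VAT 1062 and 715. Over both sexes it had 1188, 507 and 853 for BAT, SAT and VAT, and 266, 761 and 1243 for the interaction. DESeq2 called 14 genes in male BAT, 37 in female VAT and 2 in male VAT, 85 and 9 over both sexes in BAT and VAT, 12 for the interaction in VAT, and 0 elsewhere, while limma voom called 0 throughout. Of 48 tests of members in a sex and depot, the lowest p was that of Cfd in female SAT. None of 840 member fits of PCB 52 against sham under the alternatives was called, DESeq2 and limma voom among them. Any fit for which DESeq2 gave no adjusted p was counted as not called.

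In BAT, Lep was at 74.5, 16.1, 79.6, 30.6, 238.2 and 346 CPM after PCB 52 in males, against 19.5 to 116.0 in sham, a log2 difference of 1.03 (SE 0.704, edgeR adjusted p = 0.596). Its groups overlapped, the difference was 0.44 without animal 23 (346 CPM), and in females the difference was 0.28 (SE 0.815, edgeR adjusted p = 0.999). The SEs of Lep in BAT were the widest of the members there. Those of Rarres2 were the narrowest, at 0.06 (SE 0.106) in males and -0.076 (SE 0.131) in females. Retn stood at 0.26 (SE 0.166) in males and 0.33 (SE 0.264) in females, and Adipoq at 0.22 (SE 0.144) and 0.15 (SE 0.199), none called.

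In female SAT all 8 differences were below 0, and 6 of them were above 0 without sham animal 8. Cfd was at 937, 2323, 3969, 2874, 1843 and 2424 CPM after PCB 52 and at 1001, 1681, 45880, 3132 and 3026 in sham. The difference was -2.20 (SE 0.929, edgeR adjusted p = 0.768), with an unadjusted edgeR p of 0.036 from the fit across all genes, and without animal 8 it was 0.14. Retn went from -1.56 (SE 0.787) to 0.44, Lep from -0.53 to 0.59 and Adipoq from -0.35 to 0.53 in the same fit. In male SAT Retn was at 0.95 (SE 0.725, edgeR adjusted p = 1.0), with PCB 52 animal 19 at 2833 CPM and the 5 others at 166.9 to 1012. Without that animal the difference was 0.22. That library had Adipoq at 336 CPM, the lowest of the 23 SAT libraries, and held the highest summed level of skin and preputial gland markers, 59150 CPM. Its brown adipocyte markers summed to 1918 CPM, against 15.4 to 123.7 in the other SAT libraries. The part of these markers in its Retn level was not tested.

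In VAT, Nampt stood at 0.43 in males (SE 0.212, edgeR adjusted p = 0.747), or 0.27 without animal 17, and at -0.35 in females (SE 0.274, edgeR adjusted p = 0.664). Male PCB 52 libraries held 75.9, 94.3, 175.9, 126 and 130.6 CPM, overlapping the sham range of 69.4 to 123.6. Lep was at 0.36 in females (SE 0.23, edgeR adjusted p = 0.612) and -0.10 in males (SE 0.167, edgeR adjusted p = 0.885). Apln in male VAT was at 12.0 ± 8.20 CPM after PCB 52 (SD, n = 5) with animal 13, which is listed at 0, and at 15.03 ± 5.42 CPM (n = 4) without it, against 16.4 ± 3.08 CPM in sham.

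**Figure D4:**
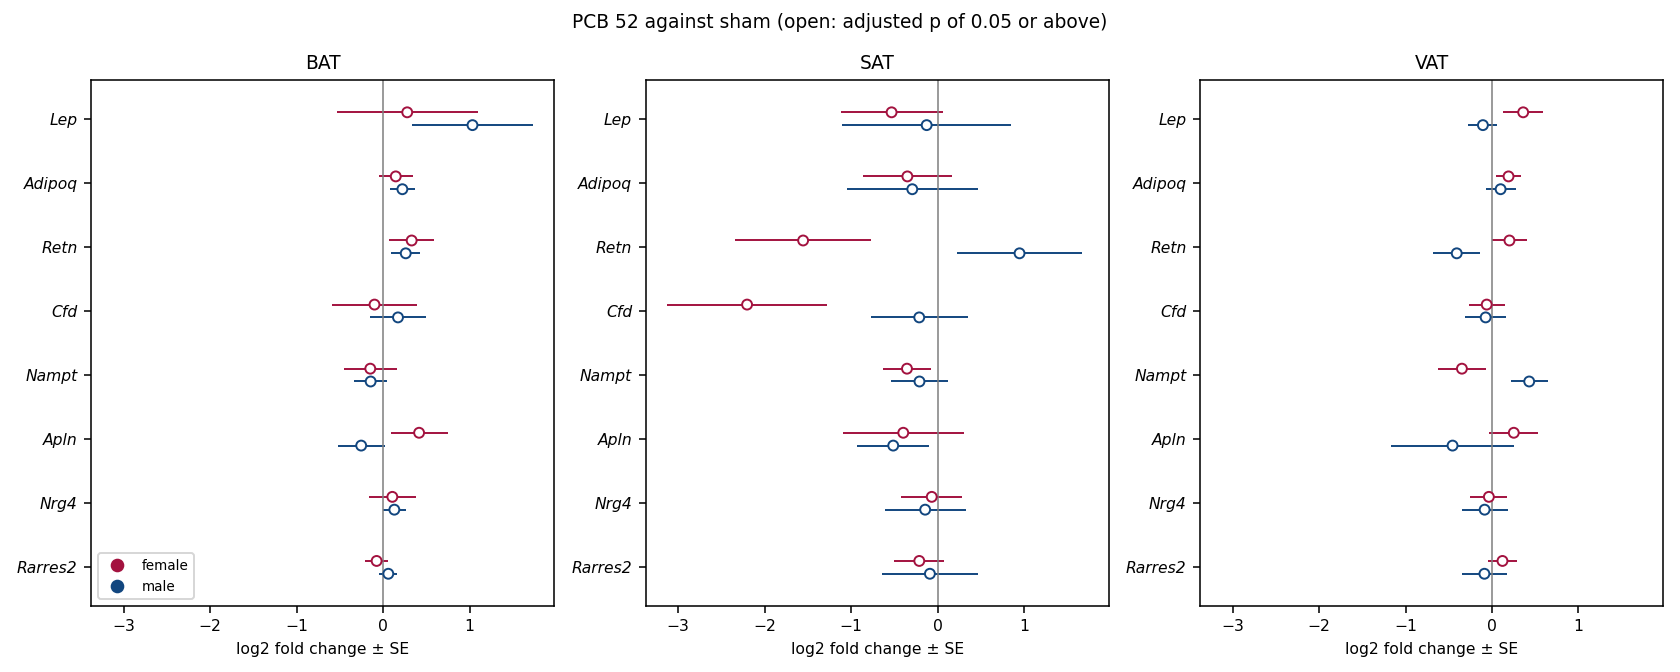
Points are log2 fold changes of PCB 52 over sham by depot and sex, and bars are SEs; no point is filled because no adjusted p was under 0.05. The widest displacement, Cfd in female SAT at -2.20, was 0.14 without sham animal 8.

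Within SAT, several adipokines were high in the libraries whose adipocyte markers were high; none of these markers is a member. In male sham SAT Lep was at 73.4, 515, 679.2, 589.3, 1047 and 18.2 CPM in animals 1, 3, 5, 7, 9 and 11, where the adipocyte sum was 7606, 31630, 26640, 28430, 32780 and 5529 CPM. The libraries of animals 1 and 11 were lowest in both and had mammary epithelium sums of 274600 and 208100 CPM. Adipoq ran in the same order of low and high libraries, at 859.8 and 419.1 CPM in those 2 and 3652 to 5111 in the other 4. Nrg4 did not: animals 1 and 11 held 69.3 and 92.7 CPM, the highest of the group. Among male PCB 52 libraries, animal 17 had the highest mammary sum, 304700 CPM, and the highest Nrg4, 127.4 CPM. The part of tissue makeup in the SAT differences between sexes and depots was not tested.

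**Figure D5:**
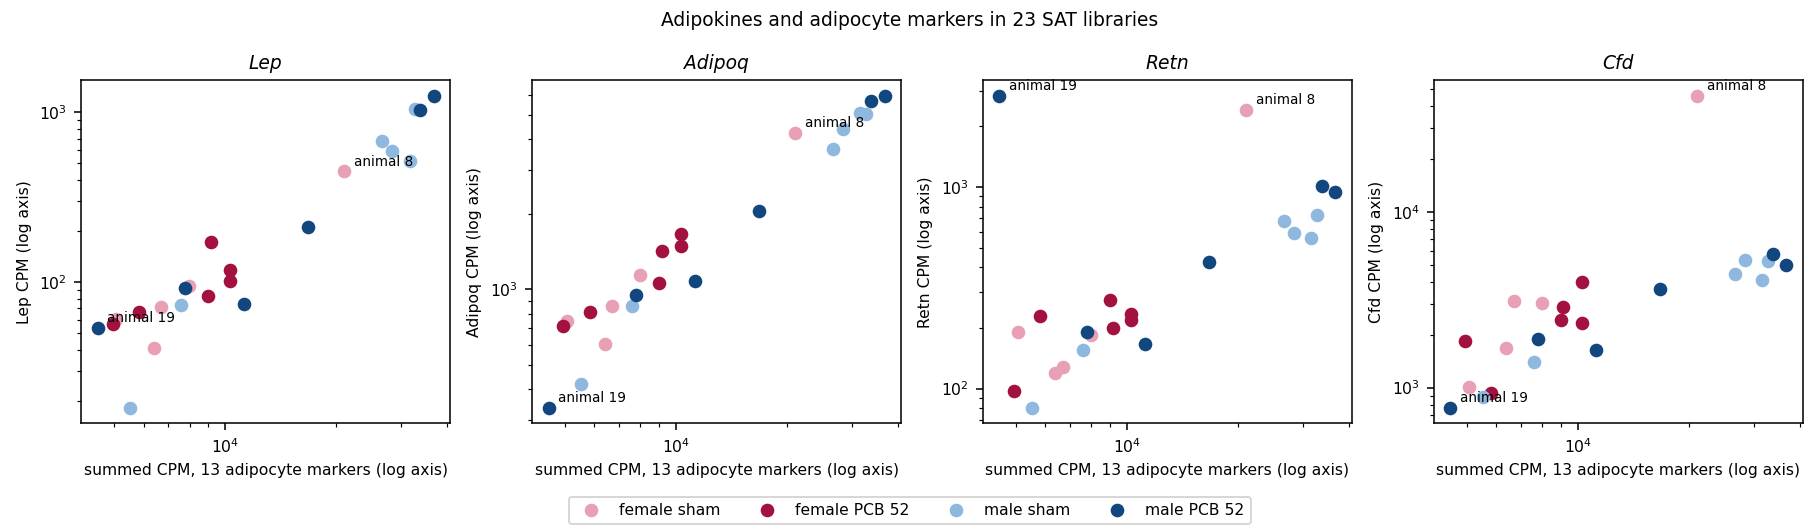
Each point is 1 of 23 SAT libraries, with the summed CPM of 13 adipocyte markers against the CPM of an adipokine, both on log axes. Lep and Adipoq are high where the markers are high, while animal 8 lies high for Cfd and Retn and animal 19 lies high for Retn alone.

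As a description over 70 libraries of 3 depots, which share depot and tissue makeup, Adipoq and Rarres2 levels had a Pearson r of 0.88, Nampt and Nrg4 0.79, Lep and Cfd 0.80, and Lep and Nampt -0.64. Among 12615 genes, the pattern most like Lep was that of Sncg (r = 0.959), then Tril (0.956). For Adipoq it was Cav1 (0.966), for Retn Pmm1 (0.873), for Cfd Nnmt (0.916), for Nampt Hsdl2 (0.927), for Nrg4 Hadh (0.914) and for Rarres2 its overlapping neighbour Lrrc61 (0.994). For Apln it was Ubl4a (0.679), and without male VAT animal 13 it was Impa1 (0.535).

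Receptors and binding proteins of these ligands were read from a list of 11 genes. In VAT of sham rats 3 of 10 tested were higher in males and 1 lower, where 17.9% of all tested genes were called. The apelin receptor gene Aplnr was at 76.2 ± 22.3 CPM against 30.6 ± 12.7 (1.32, SE 0.261, edgeR adjusted p = 0.00151), and the adiponectin receptor gene Adipor2 at 106.7 ± 18.4 against 149.4 ± 11.7 (-0.47, SE 0.114, edgeR adjusted p = 0.00637). The chemerin-binding receptor gene Ccrl2 and the adiponectin-binding cadherin gene Cdh13 were also higher. Male BAT had 2 of 10 higher and 4 lower than VAT, a share near the 50.4% of all genes called there, with Aplnr at -2.44 (SE 0.359, edgeR adjusted p = 2.3e-05), the leptin receptor gene Lepr at -2.21 (SE 0.31, edgeR adjusted p = 1.37e-05) and the chemerin receptor gene Cmklr1 at -1.80 (SE 0.273, edgeR adjusted p = 3.14e-05). Adipor2, also among the first 4 by p, was higher in male BAT than VAT at 0.84 (SE 0.225, edgeR adjusted p = 0.0047). No member of the list was called for PCB 52.

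Of 13 genes of adiponectin assembly, NAD synthesis and complement, 12 were in the tables. Nmnat3 and Nmnat1, which encode NAD-forming enzymes downstream of Nampt, were higher in male BAT than VAT by 2.08 (SE 0.156, edgeR adjusted p = 7.36e-09) and 0.98 (SE 0.135, edgeR adjusted p = 1.06e-05). In VAT they were lower in males than females by -0.71 (SE 0.206, edgeR adjusted p = 0.0206) and -0.47 (SE 0.162, edgeR adjusted p = 0.0471). Cfb, the complement factor that Cfd cleaves, was lower in male BAT than VAT by -2.70 (SE 0.225, edgeR adjusted p = 2.49e-08). Male BAT against VAT had 4 of 11 tested higher and 2 lower, and VAT of the sexes 0 of 12 higher and 2 lower in males. Both shares were near those of all tested genes, 50.4% and 17.9%.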

How the data were processed

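Read counts by gene were deposited as 6 tables, by sex and depot, all in whole numbers. For female VAT the deposited values were handled as estimated counts; its 5 summary lines, which name no gene, were left out, and no value needed rounding. Per the submitters' processing notes, FastQC, HISAT2 and build rn6 were used; their versions, the counter and its use of strand are not known from these sources. Gene numbers were matched to a RefSeq table of GRCr8 (15230 of 15319). edgeR 4.0.16 in R 4.3.3 was run on all genes with TMM, its expression filter and robust quasi-likelihood tests, with Benjamini-Hochberg adjustment over all tested genes and a threshold of 0.05. PCB 52 was tested by sex and depot, over both sexes together and as an interaction, and sham rats were compared between sexes and between depots. Depot contrasts of a sex were fitted on its 3 depots together. The SE of a depot pair therefore also carries the spread of the depot outside the pair. Log2 CPM (TMM over all 70 libraries) for likeness used a prior count of 2. DESeq2 1.42.0, limma 3.58.1 (voom), other scaling, no filter, the animal as a block and leaving out libraries were alternatives. The tests were tested on simulated data. Title numbers were read as animals, an inference from the labels: same-number sham libraries had a median r of 0.0954 over 34 pairs, 15 of them over 0.1, against -0.0234 over 170 other pairs. With all libraries it was 0.0609 over 68 pairs, 22 of them over 0.1, against -0.021 over 340 others. These r are of deviations from group means. Such deviations cancel out within a group, so the r of other pairs is not independent of that of same-number pairs. Members and lists were chosen with earlier results of these data known. Named genes of the partner lists were picked from the first 4 called members by p of a comparison, and not all of those were named. The PCB 52 rats in place of sham rats, the 7 left-out libraries and the likeness without 1 library were chosen after seeing the data. P-values weigh a difference against the spread between libraries within groups. The main depot fits did not pair libraries of 1 rat, and the replicate block did.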

Additional observations from a re-analysis of the deposited data

Results flagged for a closer look

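Of 96 sets of a gene and a group, 14 held a highest or lowest library set apart from the others by Dixon's 95% criterion, where chance gives about 1 in 20. Female SAT sham animal 8 was highest for Lep (449.3 CPM, others 40.7 to 95.3), Adipoq (4236, others 606 to 1142), Retn (2423, others 119.3 to 190.6), Cfd (45880, others 1001 to 3132) and Nrg4 (39.0, others 8.11 to 16.6). Its TMM factor, 0.5961, was the lowest of the 70 libraries, which raises its CPM. On plain totals it held Lep 267.8 (others 47.9 to 115.2), Adipoq 2525 (712.8 to 1381) and Nrg4 23.3 (9.76 to 19.1). Retn was at 1444 (140.3 to 229.4) and Cfd at 27350 (1204 to 3657). The criterion was not applied to plain totals. Female BAT PCB 52 animal 24 was highest for Lep (376.1 CPM, others 18.5 to 130) and lowest for Nrg4 (43.3, others 135.1 to 155.3). Male SAT PCB 52 animal 19 was highest for Retn (2833 CPM, others 166.9 to 1012).

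Female SAT PCB 52 animal 14 was highest for Nampt (327.9 CPM, others 125.9 to 151.4) and Apln (52.6, others 3.44 to 19.7). Female VAT sham animal 4 was highest for Nampt (717.7 CPM, others 202.5 to 329.8) and animal 2 for Apln (16.96, others 5.97 to 9.97). Female VAT PCB 52 animal 20 was highest for Adipoq (10420 CPM, others 6161 to 7456) and Rarres2 (589.5, others 280.9 to 353.6). On plain totals that library held Adipoq at 9219 (others 6125 to 7924) and Rarres2 at 521.6 (others 279.3 to 349). Of the 14, 1 lay in male libraries and 13 in female ones.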

How the results depend on the processing

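Of 28 calls of members between depots or sexes, 19 held in every fit that left out 1 library and 9 did not. Over 2277 member values under alternatives, 114 turned sign, 95 lost a call and 51 gained one; 68 of the sign changes were within 1 SE of a value called in neither fit, and the cause of the others was not tested. The replicate block changed 3 calls of members, given with the results, and no other member call. Apln had the lowest counts, down to 13 in a library with any, which limits its precision. In the names below, sex is male against female sham, and a depot pair is a contrast of sham rats of that sex. Without the 7 libraries that stood apart, log2 fold changes of turned sign were Adipoq 0.027 for sex in VAT, Adipoq 0.53, Cfd 0.14, Lep 0.59, Nrg4 0.41, Rarres2 0.076 and Retn 0.44 for PCB 52 in female SAT, Apln -0.012 for female BAT vs VAT. Others were Apln 0.021 for male VAT vs SAT, Cfd 0.32, Lep 0.69 and Retn 1.19 for female BAT vs SAT, Cfd 0.74 and Retn 1.63 for sex in SAT. Others were Cfd 0.080, Nampt 0.049 and Nrg4 0.20 for PCB 52 in female VAT, Cfd 1.91 for female VAT vs SAT, Lep -0.42 and Nampt 0.041 for PCB 52 in female BAT. Others were Lep 0.11 and Rarres2 0.12 for PCB 52 in male SAT. In the PCB 52 rats in place of the sham rats, log2 fold changes of turned sign were Adipoq 0.093 and Retn -0.56 for male BAT vs SAT, Apln 0.049 and Retn -0.30 for male VAT vs SAT, Cfd 0.13, Lep 0.43 and Retn 1.11 for female BAT vs SAT. Others were Cfd 0.42 and Retn 2.16 for sex in SAT, Cfd 1.86 for female VAT vs SAT, Lep 0.015 for sex in BAT. Others were Retn -0.35 for sex in VAT. With limma voom, log2 fold changes of turned sign were Adipoq 0.080 for male BAT vs SAT, Cfd 0.022 for PCB 52 in female BAT, Cfd 1.16 for female VAT vs SAT. Others were Lep 0.017 and Nrg4 0.21 for PCB 52 in female SAT, Retn 0.17 for female BAT vs SAT, Retn 0.43 for sex in SAT. On plain library totals, log2 fold changes of turned sign were Adipoq 0.16, Lep 0.044, Nrg4 0.30 and Rarres2 0.094 for PCB 52 in female SAT, Apln -0.063 for female BAT vs VAT, Apln 0.16 for male VAT vs SAT. Others were Cfd 0.29 for female VAT vs SAT, Rarres2 -0.12 and Retn -0.056 for male BAT vs SAT, Retn 0.10 for sex in SAT. With the replicate block, log2 fold changes of turned sign were Cfd 0.99 for female VAT vs SAT and Retn 0.21 for female BAT vs SAT. Without the 7 libraries that stood apart, the number of genes called became 5240 for female BAT vs VAT and 1 for PCB 52 in both sexes in BAT. With DESeq2, the number of genes called became 43 for sex in BAT, 1495 for sex in SAT, 85 for PCB 52 in both sexes in BAT, 9 for PCB 52 in both sexes in VAT, 37 for PCB 52 in female VAT, 14 for PCB 52 in male BAT, 2 for PCB 52 in male VAT and 12 for the interaction in VAT. In the PCB 52 rats in place of the sham rats, the number of genes called became 5214 for female BAT vs VAT, 3762 for male BAT vs VAT, 5 for sex in BAT, 246 for sex in SAT, 768 for sex in VAT and 1225 for male VAT vs SAT. With limma voom, the number of genes called became 356 for sex in SAT. Fitting only the 2 depots compared, the number of genes called became 5651 for female BAT vs VAT and 1379 for male VAT vs SAT. Leaving out each library in turn, the number of genes called ran from 0 to 11 for PCB 52 in both sexes in BAT, from 0 to 2 for PCB 52 in both sexes in VAT, from 0 to 1 for PCB 52 in male BAT, from 6 to 13 for sex in BAT, from 408 to 1375 for sex in SAT and from 0 to 3 for the interaction in VAT. The same fits gave log2 fold changes that crossed 0 for PCB 52 in female SAT of -0.55 to 0.53 (Adipoq), -1.27 to 0.12 (Apln), -2.50 to 0.14 (Cfd), -0.77 to 0.59 (Lep), -0.26 to 0.41 (Nrg4), -0.37 to 0.076 (Rarres2) and -1.82 to 0.44 (Retn). For PCB 52 in male VAT they ran at -0.0015 to 0.16 (Adipoq), -0.19 to 0.077 (Cfd), -0.20 to 0.084 (Nrg4) and -0.21 to 0.15 (Rarres2). For sex in BAT they ran at -0.20 to 0.0022 (Adipoq). For sex in VAT they ran at -0.14 to 0.012 (Adipoq). For female BAT vs VAT they ran at -0.16 to 0.38 (Apln). For male VAT vs SAT they ran at -0.082 to 0.071 (Apln). For sex in SAT they ran at -0.54 to 0.17 (Apln), -1.90 to 0.74 (Cfd) and -0.60 to 1.63 (Retn). For female BAT vs SAT they ran at -2.44 to 0.33 (Cfd), -0.93 to 0.69 (Lep) and -1.03 to 1.19 (Retn). For PCB 52 in female BAT they ran at -0.37 to 0.29 (Cfd), -0.42 to 0.75 (Lep) and -0.24 to 0.041 (Nampt). For PCB 52 in female VAT they ran at -0.14 to 0.059 (Cfd), -0.46 to 0.0035 (Nampt), -0.17 to 0.089 (Nrg4) and -0.071 to 0.18 (Rarres2). For PCB 52 in male BAT they ran at -0.17 to 0.31 (Cfd) and -0.031 to 0.093 (Rarres2). For female VAT vs SAT they ran at -0.53 to 2.05 (Cfd). For PCB 52 in male SAT they ran at -0.75 to 0.25 (Lep), -0.70 to 0.081 (Nrg4) and -0.37 to 0.12 (Rarres2). For male BAT vs SAT they ran at -0.10 to 0.25 (Rarres2) and -0.057 to 0.32 (Retn).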

Other observations

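Other secreted factors of fat were read from a list of 26 genes, 25 of them in the tables. Lcn2, which encodes the iron-siderophore carrier lipocalin 2, was at 550 ± 322 CPM in female SAT sham and 2.76 ± 0.835 CPM in BAT (log2 difference of BAT from SAT -7.62, SE 0.47, edgeR adjusted p = 1.05e-08), beside mammary epithelium sums of 5213 to 25800 CPM in those SAT libraries. Male sham BAT against VAT had 2 of 21 tested factors higher and 12 lower, where 50.4% of all tested genes were called. The first by p, Inhbb, was lower in BAT at 9.80 ± 4.66 against 83.4 ± 20.7 CPM (-3.06, SE 0.292, edgeR adjusted p = 1.42e-07). Vegfa, a vessel growth factor, was higher in male BAT than VAT at 954.9 ± 240 against 310.2 ± 99.3 CPM (1.64, SE 0.251, edgeR adjusted p = 3.43e-05). Angptl8, a regulator of lipoprotein lipase, was lower in male than female VAT at 23.6 ± 17.8 against 156 ± 34.2 CPM (-2.72, SE 0.506, edgeR adjusted p = 0.000968). In that comparison 6 of 21 tested factors were higher in males and 4 lower, where 17.9% of all tested genes were called. None of the list was called for PCB 52.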
